A study of Mus musculus with 12 samples.

Results

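In all, 10 genes of the fat cell were followed in the cecum of mice through the first 72 h after cauterization, out of 37074 genes on the array. The 10 members are Adrb3, Cyp2e1, Plin1, Adipoq, Lep, Fabp4, Cfd, Lipe, Cidec and Pnpla2, and they were taken by gene name from the non-control spots, with all of their 18 probes. They were chosen by the low values of Adrb3 and Cyp2e1 at 3 h, so the difference between 3 h and the sham control is described here without a test. The study cauterized the cecum of C57BL/6 mice to provoke adhesions and profiled total RNA of the cecum on 1-colour Agilent arrays, on which the brightness of a spot measures the amount of 1 transcript. The 12 arrays form 4 groups of 3. The sham control was sampled, by the study's methods, at 0 h from the sham operation, and the other groups came 3 h, then 12 h, then 72 h from cautery. The labels call all animals male and give no age, and they do not name the individual animals, which the study describes as biological triplicates. A time-matched sham operation was not among the groups, so time after surgery and cauterization cannot be told apart.

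White fat cells hold their triglyceride in a single large lipid droplet, coated by perilipin 1 (Plin1) and enlarged by the fusion protein encoded by Cidec. Noradrenaline acting on the β3-adrenergic receptor (Adrb3) raises cyclic AMP, and the lipases encoded by Pnpla2 and Lipe then release fatty acids, which FABP4 carries in the cytosol. Fat cells also secrete adiponectin (Adipoq), leptin (Lep) and adipsin, the complement factor D encoded by Cfd. In the abdomen, fat cells are packed in the mesentery, which runs up to the wall of the gut and carries its vessels. In bulk tissue, fewer fat cells and less RNA per fat cell cannot be told apart. The labels give the tissue as cecum and do not say how much mesenteric fat was taken with it. That amount may differ between arrays, other genes of fat cell identity moved with the members from array to array, and its part in the differences was not tested.

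Levels are given as log2 of the background-corrected intensity minus the 75th percentile of the array, so that 0 is the brightness below which 75% of probes lie. A probe counts as detected where the scanner software called it well above background, which held for 60.2% to 65.2% of the probes on each array. Replicate arrays correlated between 0.985 and 0.992 across probes, which are not independent replicates. The sham and 3 h arrays lay on 1 slide together with 12 h replicates 1 and 2, whereas 12 h replicate 3 and the 72 h arrays lay on a second slide. Xist was detected on all 12 arrays and Ddx3y and Eif2s3y on 0, which goes against the male label in all groups alike. The Y-linked Kdm5d, by its brightest probe, was detected on all 12 arrays and Uty on 1, so the markers of sex do not all point one way.

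The sequences before the transcription start are shown for a member that the rule took as low at 3 h. Those of the coat protein of the droplet and of the hormone gene whose only probe stayed flat are shown too. They are the 250 bases upstream of the start in RefSeq on GRCm38.p6, written 5′ to 3′ on the strand of the gene, for Cyp2e1 at chr7:140763569-140763818 (plus strand), Plin1 at chr7:79732777-79733026 (minus strand) and Lep at chr6:29059971-29060220 (plus strand). Capitals mark matches to TATAAA, the TATA box, and to TTGCNNAA, the letters of a C/EBP site.
Cyp2e1: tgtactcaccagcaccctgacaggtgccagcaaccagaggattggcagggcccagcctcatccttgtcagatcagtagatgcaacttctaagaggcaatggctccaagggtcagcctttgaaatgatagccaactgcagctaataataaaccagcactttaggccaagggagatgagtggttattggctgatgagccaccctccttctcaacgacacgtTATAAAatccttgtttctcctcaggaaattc
Plin1: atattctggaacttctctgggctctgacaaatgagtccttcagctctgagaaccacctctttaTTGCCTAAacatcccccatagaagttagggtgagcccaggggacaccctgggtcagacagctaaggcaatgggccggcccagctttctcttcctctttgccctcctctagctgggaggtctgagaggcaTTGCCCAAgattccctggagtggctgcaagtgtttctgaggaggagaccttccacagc
Lep: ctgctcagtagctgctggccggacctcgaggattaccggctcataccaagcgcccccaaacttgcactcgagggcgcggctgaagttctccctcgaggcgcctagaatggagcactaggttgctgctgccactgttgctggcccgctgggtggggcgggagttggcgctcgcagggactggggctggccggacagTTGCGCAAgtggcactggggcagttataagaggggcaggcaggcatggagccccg
The Cyp2e1 window held TATAAA 31 bases before the start. Plin1 held TTGCNNAA at 187 and at 58 bases before the start, and Lep held it at 55 bases. These matches share the pattern and differ in the letters at its N positions. Of the 10 members, 8 genes had windows in the table, 10 windows in all, each of 300 bases reaching 50 bases past the start. Searched on both strands, where these motifs do not overlap one another in the bases shown, TTGCNNAA lay in windows of 3 genes (Cidec, Lep and Plin1) and in 10.8% of all 32851 windows. TATAAA lay in that of Cyp2e1 and in 13.6% of all windows, and the E-box CACGTG in that of Lipe and in 7.15%. AGGTCA, the core of nuclear receptor sites, and TGACG, the core of CREB sites, were found in 0 of the member windows and in 16.3% and 20.8% of all windows. A match of letters is a description of the window and not a binding site.

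Adrb3 and Cyp2e1 were lower on all 3 h and 12 h arrays than on any sham array and were back near the sham level on average at 72 h. For Adrb3 (NM_013462, probe at chromosome 8 of mm9 from 28336268 to 28336327), the sham replicates 1, 2 and 3 had levels of -1.17, -1.19 and -1.37. In the same order, the levels were -5.36, -4.34 and -4.77 at 3 h, then -4.58, -4.98 and -4.50 at 12 h, then -0.22, -1.28 and -2.81 at 72 h. The sham arrays lay within 1.15-fold of each other, and the 72 h arrays lay above all 3 h and 12 h arrays. The difference from sham was -3.58 at 3 h (standard error 0.52), or 12.0-fold lower, -3.45 at 12 h, or 10.9-fold lower, and -0.20 at 72 h. These are descriptions, since the sham arrays served to choose the gene. Among the 21286 genes detected on all sham and 3 h arrays, Adrb3 and Cyp2e1 had the second and the third lowest difference at 3 h. The lowest was that of Car3, carbonic anhydrase 3, which is abundant in fat cells, with -4.01, and the next after both was that of 9130208D14Rik with -3.33.

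Cyp2e1, a cytochrome P450 known from liver and also made by fat cells (NM_021282, chromosome 7 of mm9 from 147960628 to 147960687), was at 0.34, 0.90 and -0.39 in the sham control. By 3 h it was at -3.93, -1.75 and -3.90, by 12 h at -3.90, -2.98 and -3.76, and by 72 h at 2.29, -0.07 and -2.24. The 3 h array of replicate 2 stood above its group, and the 72 h arrays spread over 23.2-fold. Against sham, the 3 h mean differed by -3.48, the 12 h mean by -3.83 and the 72 h mean by -0.29 (standard error 0.99 for each). The second Cyp2e1 probe followed the first with r = 0.99 over the 12 arrays. The second Adrb3 probe was detected on only 2 arrays and had r = 0.79 with the first.

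**Figure D1:**
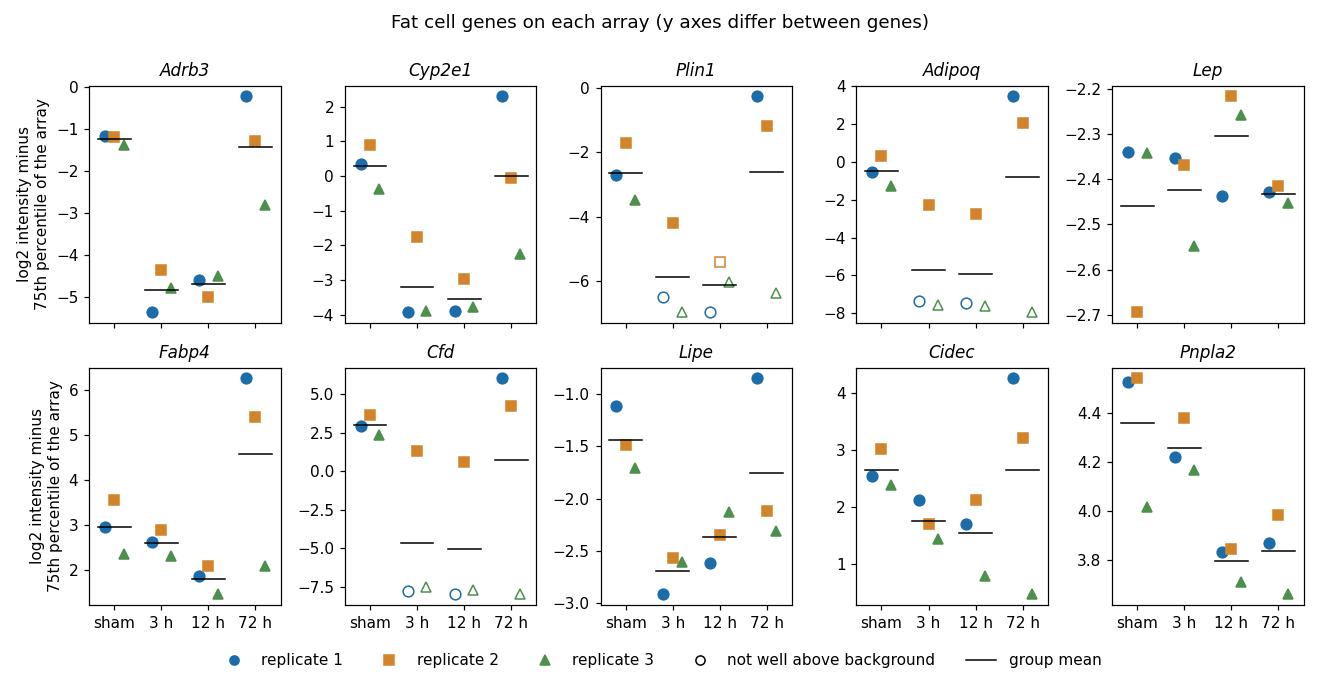
Level of each of the 10 fat cell genes on each of the 12 arrays (y axis, log2 intensity relative to the array's 75th percentile, scaled per gene) by group (x axis), with 1 symbol per replicate number, open symbols where the probe was not well above background and a line at the group mean. Cfd and Adipoq were detected on all sham arrays, on replicate 2 alone at 3 h and 12 h and on replicates 1 and 2 at 72 h, while Lep stayed between -2.69 and -2.22.

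The secreted factors showed the widest and the narrowest spread of all members. Cfd (NM_013459, chromosome 10 of mm9 from 79355302 to 79355361) was at 2.98, 3.65 and 2.35 in the sham control. The 3 h arrays had -7.76, 1.34 and -7.54, the 12 h arrays -7.999, 0.62 and -7.70, and the 72 h arrays 6.05, 4.23 and -7.98. On 5 of the 12 arrays Cfd was not well above background, and on these the value is only an upper limit. Within groups, the highest array exceeded the lowest by at least 109-fold at 3 h, 78.5-fold at 12 h and 3426-fold at 72 h, taking the dimmest detected probe of the array as the limit, while the sham arrays differed by 2.47-fold. A second Cfd probe gave the same picture (r = 0.997). Adipoq (NM_009605, chromosome 16 of mm9 from 23157576 to 23157635) was at -0.51, 0.30 and -1.25 in the sham control. The 3 h arrays had -7.33, -2.28 and -7.54, the 12 h arrays -7.44, -2.74 and -7.60, and the 72 h arrays 3.47, 2.08 and -7.96. It was detected on the same 7 arrays as Cfd, with a difference of at least 572-fold between 72 h replicates 1 and 3. All sham arrays lay above all 3 h and 12 h arrays for both genes.

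Lep, the leptin gene (NM_008493, chromosome 6 of mm9 from 29020910 to 29020969), was detected on all 12 arrays and lay between -2.69 and -2.22 throughout. Its difference from sham was 0.04 at 3 h. The later differences were 0.15 at 12 h (standard error 0.12), for which limma gave an adjusted p of 0.442, and 0.03 at 72 h, with an adjusted p of 0.892. It has 1 probe, so no second probe could be set beside it. Lep read -2.43 and -2.45 on 72 h replicates 1 and 3, between which Adipoq differed by at least 572-fold. Whether the flat signal of this probe reports leptin transcript of fat cells was not tested.

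The coat and fusion proteins of the droplet followed Adipoq in part. Plin1 (NM_175640, chromosome 7 of mm9 from 86866112 to 86866171) was at -2.72, -1.70 and -3.50 in the sham control and at -0.26, -1.17 and -6.38 at 72 h. At 3 h it was detected on replicate 2 alone, at -4.19, and at 12 h on 0 arrays, where the sham mean exceeded the 12 h limit by at least 7.21-fold (fitted difference -3.50, limma adjusted p = 0.105). Its other probes, which are of the transcripts AK027962 and BC025137, had r = 0.81 and 0.65 with the first, and 12 h replicate 3 stood out on the latter at -2.31. The AK027962 probe, detected on 11 arrays, differed from sham by -0.51 at 3 h and -0.19 at 12 h and overlapped the sham arrays at both times. The BC025137 probe, detected on 5 arrays, lay under the sham arrays at 3 h (-1.98) and overlapped them at 12 h (-0.64). The size of the Plin1 difference at 12 h therefore rests on the first probe. Cidec (NM_178373, chromosome 6 of mm9 from 113374693 to 113374752) was detected on all arrays. The sham arrays had 2.55, 3.02 and 2.38, the 3 h arrays 2.12, 1.70 and 1.45, the 12 h arrays 1.71, 2.12 and 0.79 and the 72 h arrays 4.26, 3.20 and 0.47. The differences from sham were -1.11 at 12 h and -0.0072 at 72 h, and limma's adjusted p was 0.372 at 12 h. The 72 h arrays included both the highest values of Cidec and the lowest.

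Fabp4 (NM_024406, chromosome 3 of mm9 from 10204452 to 10204511), the fatty acid carrier, was at 2.95, 3.54 and 2.36 in the sham control. The 3 h arrays had 2.61, 2.88 and 2.30, the 12 h arrays 1.85, 2.09 and 1.44, and the 72 h arrays 6.27, 5.40 and 2.08. It overlapped the sham arrays at 3 h, unlike Adrb3 and Cyp2e1, and lay under all of them at 12 h. A second probe had r = 0.998 with the first. FABP4 is also made by endothelial cells and macrophages, whose markers are given with the other cell types.

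Both lipase genes were detected on all arrays and moved less. Lipe, hormone-sensitive lipase, by its brightest probe (AK019846, chromosome 7 of mm9 from 26167986 to 26168045), was at -1.12, -1.49 and -1.71 in the sham control. The 3 h arrays had -2.92, -2.56 and -2.60, the 12 h arrays -2.62, -2.35 and -2.12, and the 72 h arrays -0.85, -2.11 and -2.31. Its difference from sham at 12 h was -0.92 (limma adjusted p = 0.0803). The probe of NM_010719 followed it with r = 0.91, and the third probe was detected on 0 arrays. Pnpla2, adipose triglyceride lipase (NM_001163689, chromosome 7 of mm9 from 148645928 to 148645987), was at 4.53, 4.54 and 4.02 in the sham control and at 4.22, 4.38 and 4.17 at 3 h. At 12 h it was at 3.83, 3.85 and 3.71 and at 72 h at 3.87, 3.99 and 3.66, under all sham arrays at both times. It fell by 0.56 at 12 h, with a limma adjusted p of 0.0269, and by 0.52 at 72 h, with 0.039 (standard error 0.16 for both). Both changes are under the 2-fold needed for a call.

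To ask which members differed between groups, limma was fitted to the 4 group means on all 12 arrays, with Benjamini-Hochberg adjustment across the 56605 probes. A call needed, on the brightest probe of a gene, more than a 2-fold change together with an adjusted p under 0.05. The p-values measure the spread between these arrays. At 3 h, 7 of the 10 members were lower on every array than on any sham array, which held for 18.7% of all genes, and their median difference was -2.25 beside 0.06 over all genes. Adrb3 and Cyp2e1 are among these and chose the set, so nothing is read from these values. For the other 8 members, the count without overlap was 5 and the median difference -1.07. At 12 h against sham, 9 of 10 members were lower, with a median of -2.30 beside -0.04 over all genes, and the 8 members other than Adrb3 and Cyp2e1 had a median of -1.13. Of the 8 members other than Adrb3 and Cyp2e1, 7 lay below the sham arrays without overlap, which held for 22.3% of all genes. Of these 8 genes limma called 0, beside 9.28% of all genes, and 3 had an unadjusted p below 0.05. The largest fitted differences, of -8.02 for Cfd (limma adjusted p = 0.176) and -5.44 for Adipoq (0.2), came with the largest standard errors, 3.81 and 2.72. Both genes were detected on only 1 of the 12 h arrays, so the fit took upper limits as measured values and these sizes are uncertain. Without 72 h replicate 3, with which the standard error of Plin1 was 1.39 and without which it was 0.75, 3 of the 8 were called lower at 12 h, namely Plin1 (limma adjusted p = 0.0107), Adipoq (0.0408) and Fabp4 (0.0392), with the differences themselves unchanged. Within the first slide alone, Plin1 and Lipe were called lower (limma adjusted p = 0.0324 and 0.0381). With normexp background correction the median was -1.08 at 12 h and -0.79 at 3 h.

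At 72 h against sham, the median difference of the 10 members was -0.24 beside -0.15 over all genes, and 7 were lower and 3 higher. Limma called 0 of the 8 tested members, beside 8.9% of all genes, 4.5% higher, and 1 had an unadjusted p below 0.05 (Pnpla2). The group mean at 72 h averaged arrays that lay on opposite sides of the sham control. On replicates 1 and 2, Adipoq, Cfd, Plin1, Fabp4 and Cidec lay above all sham arrays, and on replicate 3 below all of them. Without replicate 3 the median difference was 0.95, and Fabp4 was called higher than in the sham control by 2.89 (limma adjusted p = 0.00141).

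**Figure D2:**
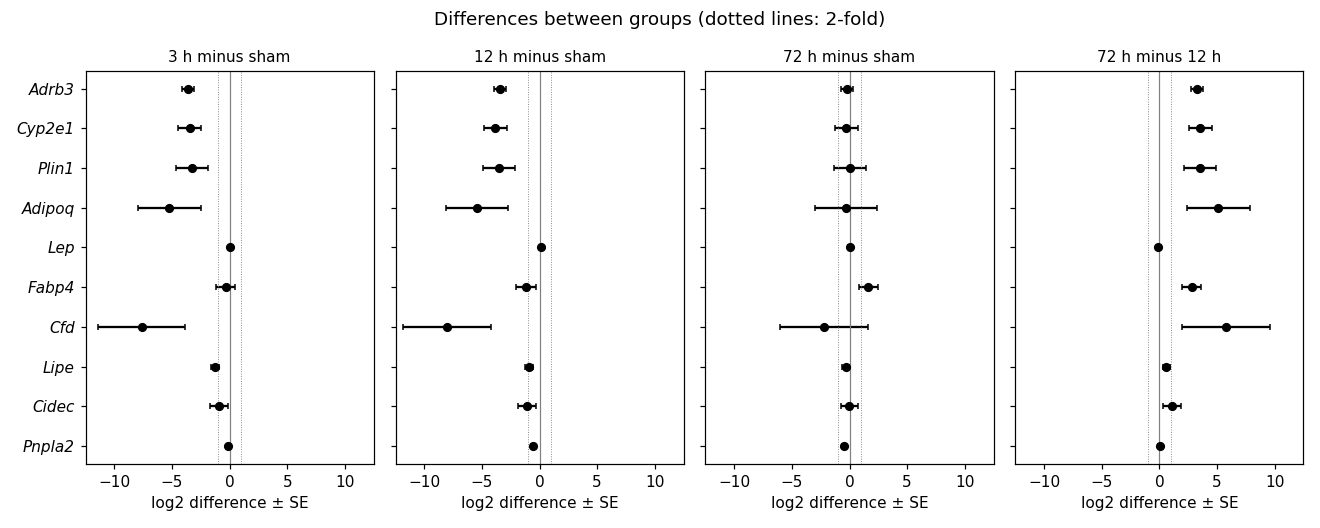
Difference between group means for the 10 fat cell genes (y axis) on the log2 scale (x axis), with points at the limma estimate and bars of 1 standard error, for 3 arrays per group; dotted lines mark a 2-fold difference. The bars are widest for Cfd and Adipoq, 3.81 and 2.72, and the differences are negative for 9 genes at 12 h and positive for 9 genes from 12 h to 72 h.

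The comparison of 72 h with 12 h shares no array with the one that chose the members, but its standard errors pool the spread of all 12 arrays. Its p-values are therefore not independent of that choice. With only the 12 h and 72 h arrays fitted, Adrb3 alone was called. In the fit of all 12 arrays, Adrb3, Cyp2e1 and Fabp4 rose between 12 h and 72 h. Limma called these 3 of 10 members higher and 0 lower, beside 4.49% of all genes higher and 2.94% lower. Adrb3 rose by 3.25 (standard error 0.52, limma adjusted p = 0.00282), or 9.53-fold, Cyp2e1 by 3.54 (0.99, limma adjusted p = 0.0343) and Fabp4 by 2.79 (0.85, limma adjusted p = 0.0486). Adrb3 and Cyp2e1 were higher on every 72 h array than on any 12 h array, which held for 15.1% of all genes, whereas Fabp4 overlapped, since 72 h replicate 3 lay at the level of 12 h replicate 2. The median difference of the 10 members was 3.02 beside -0.12 over all genes. The slide nearly coincides with the time in this comparison. When slide was a block, Adrb3 differed by 3.07, Cyp2e1 by 3.75 and Fabp4 by 3.14, with limma adjusted p of 0.0651, 0.211 and 0.222, and 0 members were called, with 3 at an unadjusted p below 0.05. Within the second slide, where 3 arrays face 1, the differences were the same. Both fits set the 72 h arrays against 12 h replicate 3 alone. Adrb3 kept its call when any one of the 12 arrays was left out. Leaving out any one of the 12 h or 72 h arrays other than 72 h replicate 3 left Adrb3 as the only member called, with Cyp2e1 at an adjusted p of 0.0654 to 0.0975. Of the 12 fits that each left out 1 array, Fabp4 kept its call in the fit without 72 h replicate 3. Without that array 6 members were called higher, namely Adrb3, Cyp2e1, Fabp4, Cidec (2.19, limma adjusted p = 0.00957), Plin1 and Adipoq. Plin1 was detected on 0 of the 12 h arrays and was then at least 27.3-fold higher at 72 h (limma adjusted p = 0.00321). Adipoq was detected on 1 of the 12 h arrays, so the size of its difference is not given (limma adjusted p = 0.0119).

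The members other than Lep varied together from array to array within a group. The residual SD of the members had a median of 1.11, beside 0.246 over all genes, and that of Cfd, 5.23, exceeded that of more than 99.9% of genes, as did that of Adipoq, 3.74. Values of Cfd and Adipoq that were not well above background entered these SDs as measured. Lep (0.130) and Pnpla2 (0.184) lay below the median of all genes. Of the 9 members other than Lep, sham replicate 2 was the highest of its group for 7 and sham replicate 3 the lowest for 9. At 3 h replicate 2 was the highest for 8, at 12 h replicate 2 the highest for 7, and at 72 h replicate 1 was the highest for 8 and replicate 3 the lowest for 9. Deviations from the group means correlated above 0 in 36 of 36 pairs of these 9 genes, with a median r of 0.79 over the 12 arrays, and the lowest was 0.30. With Lep included, 41 of 45 pairs were above 0, with a median r of 0.70 and a lowest of -0.24. These correlations are a description over arrays that share groups and normalization. The shared number of replicate 2 at 3 h and 12 h is a name, since the labels do not tie numbers across groups.

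**Figure D3:**
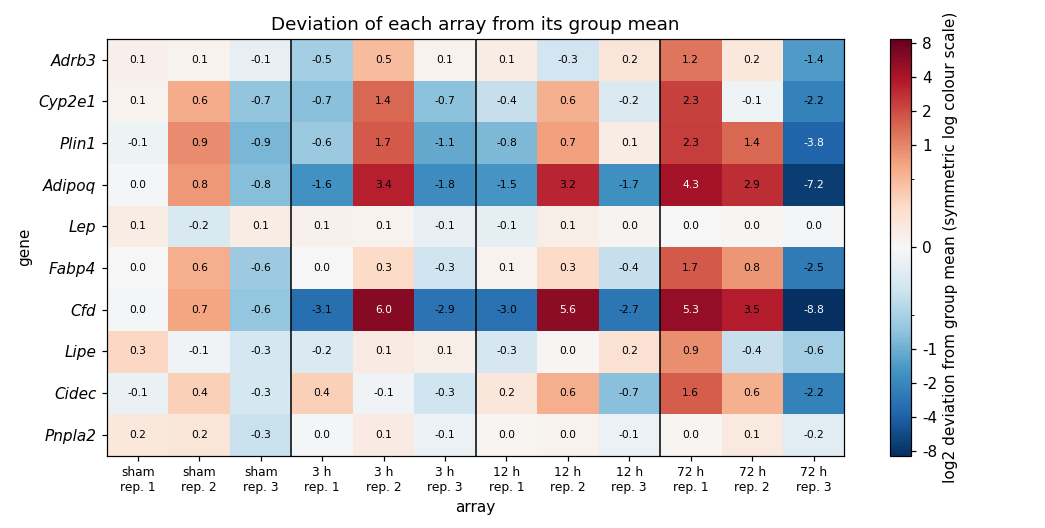
Deviation of each array (columns) from the mean of its group for each fat cell gene (rows), in log2 units printed in the cells, with red above and blue below the group mean on a symmetric log colour scale. Most rows share sign on 3 h replicate 2, 12 h replicate 2, 72 h replicate 1 and 72 h replicate 3, with -8.8 for Cfd and -7.2 for Adipoq on the last, whereas the row of Lep stays near 0.

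Other genes of fat cell identity shared the pattern in part. Of 24 such genes, 4 were called lower at 12 h against sham and 1 higher, with 5.33% and 3.95% of all genes, and the median was -1.07. Those lower were Slc2a4, the insulin-responsive glucose transporter (-1.80, limma adjusted p = 0.000231), the receptor gene Acvr1c (-1.47), and Gpam (-1.54) and Acsl1 (-1.02), which serve the making of glycerolipids and acyl-CoA. Dgat2, which makes triglyceride, was called higher (1.92, limma adjusted p = 0.000584). Between 72 h and 12 h, 6 of the 24 were called higher, namely Plin4, Mrap, Tusc5, Lpl, Cd36 and Sncg, and Agpat2 and Dgat2 were called lower. Over all genes, 4.49% were called higher and 2.94% lower there. Lpl, lipoprotein lipase, rose by 3.27 (limma adjusted p = 0.0071). Car3 and Retn, the resistin gene, were far lower at 12 h on average, by -4.74 and -2.83, but were not called (limma adjusted p = 0.214 and 0.195). Car3 was at 5.03, 3.51 and -5.81 on the 72 h arrays, so that it too was lowest on replicate 3. The mean deviations of these 24 genes from their group means had r = 0.98 with those of the 10 members over the 12 arrays. Such means, here and for the lists below, are not scaled by gene. Genes with a wide spread, such as Cfd and Adipoq among the members and Car3 here, therefore weigh most. So do arrays far from their group mean, above all 72 h replicate 3, where Cfd deviated by -8.75 and Adipoq by -7.15. Pparg and Cebpa, the master regulators of fat cell differentiation, differed from sham by -0.52 and 0.15 at 12 h, both within 2-fold.

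Genes of catecholamine signaling and lipolysis did not follow the members. Of 18 genes, 4 were called higher and 4 lower at 12 h, beside 3.95% and 5.33% of all genes. Their mean deviations had r = 0.11 with those of the members. G0s2, an inhibitor of the lipase encoded by Pnpla2, rose by 5.52 at 12 h (limma adjusted p = 9.36e-06) and Hcar2, a receptor that restrains lipolysis and is also found on myeloid cells, by 6.57 (2.57e-05). Hilpda (1.74), which also restrains lipolysis, was called higher too. Lower were the β1-adrenergic receptor gene Adrb1 (-2.14), Adra2a (-1.93), Mgll, which cleaves monoglycerides (-1.31), and Cidea (-1.11). Of 11 genes of brown and beige fat, Ucp1, Elovl3 and Zic1 were detected on 0 arrays, and 3 were called lower and 0 higher at 12 h. Of 10 genes of fatty acid synthesis, all were lower at 12 h and 1 was called, Thrsp, at -4.44 (limma adjusted p = 0.00271). The mean deviations of this list had r = 0.79 with those of the members.

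Markers of other cell types also moved with the groups, and their part in the values of the fat cell genes was not tested. Over all genes, 3.95% were called higher and 5.33% lower at 12 h against sham. The share called higher was 4.5% at 72 h against sham and 4.49% at 72 h against 12 h. The 10 genes of capillary endothelium, all detected on all arrays, had r = 0.78 with the members in their mean deviations, and 8 of 10 were called higher at 72 h than at 12 h, with 1 lower at 12 h than in the sham control (Cldn5, -1.16). Their summed intensity, in units of the 75th percentile of the array, ranged from 12.9 to 13.3 in the sham control, with a median of 9.74 at 3 h, 11.9 to 13.6 at 12 h and 18.5 to 46.1 at 72 h. The 10 genes of fat stroma and progenitors had r = 0.87, and 2 were called higher from 12 h to 72 h, Cd34 and Zfp423. Their summed intensity was 15.7 to 17.6, 23.1 to 28.6, 19.1 to 26.2 and 26.1 to 48.3 over the groups in order, and Ebf2 was detected on 2 arrays. Icam1 and F3, which inflammation induces, made up 20.2% to 25.1% of the sum in the sham control and 58.9% to 70.6% at 3 h. The sum and the list went opposite ways at 3 h, where 7 of the 10 genes were lower on average than in the sham control, with a median of -0.12. The 10 neutrophil genes, r = -0.41, had a median difference from sham of 6.60 at 12 h, and 9 were called higher there and 8 at 72 h. Their summed intensity was 56.8 to 65.0 in the sham control, 257.2 to 441.6 at 3 h, 669 to 766 at 12 h and 259 to 521 at 72 h. It was thus above the sham control at 3 h and 12 h, when most fat cell members were low. The same held at 72 h, when several members lay above the sham arrays on replicates 1 and 2. The 10 macrophage genes, r = 0.52, rose at 72 h against sham in 9 cases, with a summed intensity of 27.6 to 28.7 in the sham control and 80.0 to 97.1 at 72 h. The 10 smooth muscle genes, r = -0.48, were all called lower at 12 h, with a summed intensity of 410 to 453 in the sham control and 130 to 203 at 12 h. For 10 genes of mesenteric lymphoid tissue, r was -0.36, with sums of 26.6 to 39.1, 12.9 to 37.5, 22.6 to 43.6 and 14.5 to 33.0 and 1 gene called at 12 h, Ccr7, which was higher. For 10 genes of liver, which also makes CYP2E1, r was 0.46, with sums of 8.28 to 11.1 in the sham control and 5.82 to 6.52 at 72 h. The median level of the list went the other way, from -4.82 to -4.34 in the sham control to -1.93 and -2.51 on 72 h replicates 1 and 2, with -4.99 on replicate 3, the array on which the fat cell members were also low. Apoa1 and Fgb of that list were detected on 0 arrays, while Ahsg was at 0.95, -1.28 and -6.78 on the 72 h arrays and thus also lowest on replicate 3.

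Genes of the mesothelium, the lining of the cecum, did not move as 1 set against sham. Between 72 h and 12 h, 6 of the 8 were called higher and 0 lower, beside 4.49% and 2.94% of all genes. Their median difference was 2.88 there, beside 3.02 for the 10 fat cell members. Against sham, 3 of the 8 were called lower at 12 h, Upk3b, Lrrn4 and Gpm6a, beside 5.33% of all genes. At 72 h 3 were called higher, Wt1, Upk1b and Bnc1, beside 4.5% of all genes. Wt1 and Upk1b were detected on all 12 arrays and differed from sham by 0.17 and -0.0036 at 12 h, and Msln was detected on 11 arrays. Upk3b and Lrrn4 were detected on all sham and 72 h arrays and on 0 arrays at 3 h and 12 h. Upk3b was at -3.35, -3.02 and -3.31 in the sham control, between -7.76 and -7.27 at 3 h and 12 h and at -2.03, -3.38 and -4.23 at 72 h, so it was detected on 72 h replicate 3, where Cfd, Adipoq and Plin1 were not. It was at least 4.91-fold lower at 12 h than in the sham control (limma adjusted p = 0.000149) and at least 4.95-fold higher at 72 h than at 12 h (0.000326). Adrb3 and Cyp2e1 resembled it in that all 72 h arrays lay above all 12 h arrays. The mean deviations of the mesothelial list had r = 0.55 with those of the members, and its summed intensity was 154 to 184 in the sham control, 223 to 249 at 3 h, 146 to 187 at 12 h and 98.9 to 139 at 72 h. Krt19, a keratin that gut epithelium also makes, held 90.9% to 99.9% of that sum, so the sum describes Krt19. Without regard to size, 6 of the 8 genes were higher on average at 72 h than in the sham control, with a median of 0.45.

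**Figure D4:**
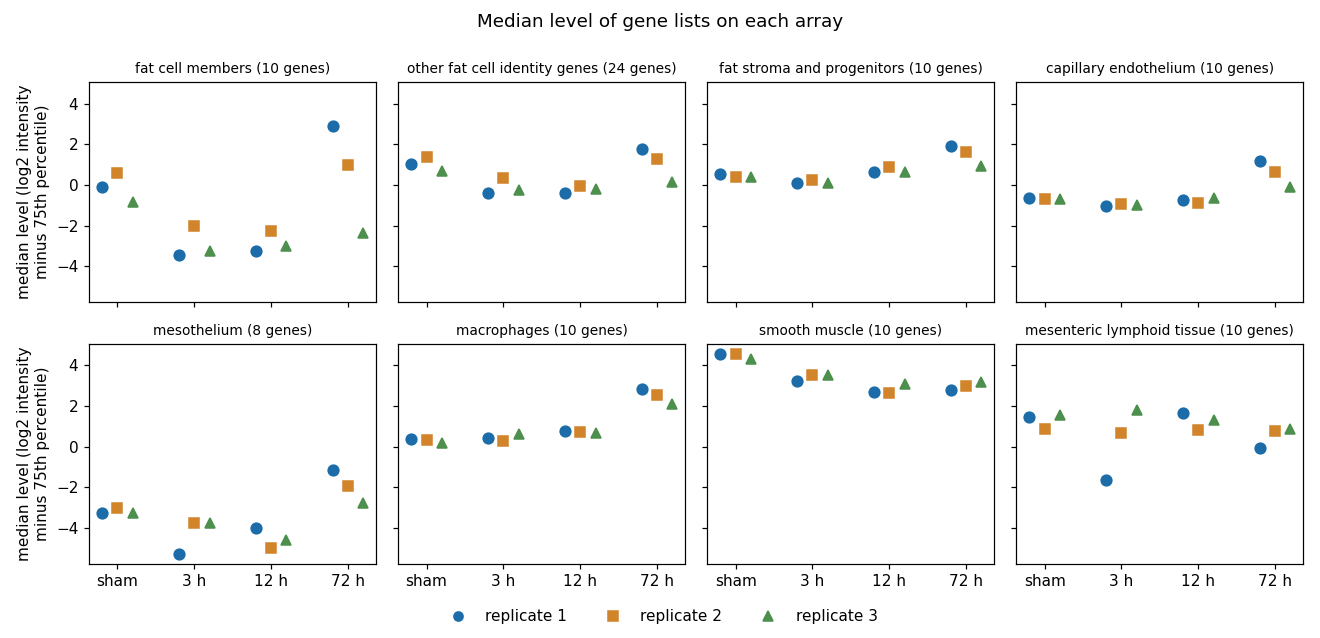
Median level of 8 gene lists on each array (y axis, log2 intensity relative to the array's 75th percentile, on 1 scale) by group (x axis), with 1 symbol per replicate number. The fat cell members spread from -2.38 to 2.88 at 72 h, whereas smooth muscle genes lay from 2.80 to 3.18 there.

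Among 16621 other genes detected on all 12 arrays, those most like the mean centred profile of the 10 members over the 12 arrays were Adig (r = 0.94), a gene induced in fat cell differentiation, Aox1 (0.94), an aldehyde oxidase, Steap3 (0.90), a metalloreductase, Osr2 (0.90), a transcription factor, and Fam161a (0.90). Adig was at -2.60, -1.73 and -2.86 in the sham control and at 0.61, -0.94 and -4.10 at 72 h. Ranked by deviations from the group means, Adig (0.96), Pi16 (0.94), Zfyve28 (0.94) and Npr3 (0.94) were among the first 5, and Npr3, the clearance receptor for natriuretic peptides, rose by 3.64 from 12 h to 72 h (limma adjusted p = 0.00263). The genes were ranked by these correlations, which are therefore given without a test. The mean profile of the members was not scaled by gene, so Cfd and Adipoq weigh most in it.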

How the data were processed

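Total RNA of mouse cecum was measured on 12 arrays in 4 groups of 3, set by the sample titles. The authors deposited, for each array, the background-corrected intensity of every spot from Agilent Feature Extraction, before normalization between arrays. Their processed log2 values, which the authors scaled in GeneSpring to the 75th percentile, correlated by 0.9995 with the recomputed values. Control spots and spots flagged as outliers (53 to 152 per array) were left out, spots of a probe were averaged, and the 75th percentile of log2 intensity was subtracted. No spot was saturated. Such scaling assumes that the upper range of the arrays is comparable, and dim probes have only an upper limit. R 4.3.3 with limma 3.58.1 served to fit the group means, and Python 3.11.15 and the R package data.table (1.17.8) to read the files. Since 11876 genes had several probes, the brightest on average stood for the gene. Genome positions follow the deposited scanner output (mm9), and exons were not assigned.

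The members and gene lists were chosen with earlier results of these data known. Named were all members, up to 4 genes per list with the largest difference at 12 h or 72 h, genes called against their list, the 5 most similar genes by each of 2 rankings, and genes that check the sex. Some list genes were named after their values were seen, and not all genes that the rule allows are named, some of which are not reported here. Further lists were intestinal epithelium and exocrine pancreas, with r = -0.29 and 0.65 to the members in their mean deviations. Having 3 arrays in each group limits the precision. Alternatives were quantile normalization, the percentile over detected probes, normexp (offset 50), the authors' table, keeping outlier spots, filtering dim probes, blocks for the slide or the replicate number, 1 slide only, eBayes with trend and robust, only the groups compared, the mean of a gene's probes, and leaving out each array.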

Additional observations from a re-analysis of the deposited data

Results flagged for a closer look

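The difference from the sham control changed between 12 h and 72 h for 3 members by the test of the 72 h minus 12 h difference itself. Its standard errors pool all 12 arrays, including those by which Adrb3 and Cyp2e1 were chosen, so its p-values are not independent of that choice. With only the 12 h and 72 h arrays fitted, Adrb3 alone was called. Adrb3 differed by 3.25 on the log2 scale (limma adjusted p = 0.00282), and in 22 of 24 alternatives the call held, with 1.44 to 3.94. Both exceptions concern the slide, namely a block for slide (3.07, limma adjusted p = 0.0651) and the second slide alone (3.07). Both fits set the 72 h arrays against 12 h replicate 3 alone, so they are not separate checks. Cyp2e1 differed by 3.54 (limma adjusted p = 0.0343) and held the call in 16 of 24 alternatives, with 2.33 to 4.66. Fabp4 differed by 2.79 (limma adjusted p = 0.0486) and held the call in 8 of 24 alternatives, with 1.95 to 4.04. All 3 members had the lowest value of the 72 h group on replicate 3. Without that array limma's adjusted p was at its smallest over the alternatives for Fabp4, 0.000335. With groups of 3, single arrays far from the others were not looked for by a rule.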

How the results depend on the processing

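Of the 8 members other than Adrb3 and Cyp2e1, 0 were called at 12 h against sham, and 2 within 1 slide or when only the 2 groups were fitted. Of all 10 members, 3 were called at 72 h against 12 h, and 5 with normexp, 0 with slide as a block, 0 within 1 slide and 1 when only the 2 groups were fitted. Leaving out 1 array gave 0 to 3 of the 8 at 12 h, 0 to 1 of the 8 at 72 h against sham and 1 to 6 of the 10 at 72 h against 12 h. The medians over the 10 members stayed from -2.571 to -2.002 at 3 h, -2.48 to -1.99 at 12 h, -0.81 to 0.95 at 72 h and 2.16 to 3.99 for 72 h minus 12 h when 1 array was left out, and normexp gave -0.79, -1.08 and 1.35 for 3 h, 12 h and 72 h minus 12 h. The highest value at 72 h came without 72 h replicate 3.

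Values near 0 at 72 h against sham changed sign. Cidec was -0.0072 and became 0.091 with quantile normalization, 0.056 with the percentile over detected probes, 0.024 with normexp, 0.0045 in the authors' table and 1.11 with slide as a block. With slide as a block Adipoq was 2.20, Cfd 1.78, Lep -0.041 and Plin1 -0.13, and with normexp Adipoq was 1.096 and Lep -0.068. Only the 12 h group lay on both slides, so the slide block rests on 12 h replicate 3 against 12 h replicates 1 and 2. For Adipoq, 12 h replicate 3 was at -7.60, and replicates 1 and 2 were at -7.44 and -2.74. Leaving out 1 array gave -1.14 to 1.92 for Plin1, -2.45 to 3.26 for Adipoq, -0.091 to 0.086 for Lep, -4.87 to 2.15 for Cfd and -0.81 to 1.08 for Cidec, and -0.031 to 0.13 for Pnpla2 at 72 h minus 12 h. None of these values passed the threshold, and the cause was not tested. Over 26 tested differences of single members, 554 values kept direction and side of the threshold, 26 lost and 13 gained a call and 23 changed sign. Replicate numbers did not pair the samples, since same-numbered arrays deviated together by r = -0.16 to 0.087, and 3 of 12 arrays matched their own number best. The fit with replicate number as a block called 0, 0 and 3 members, as without it. With 3 arrays per group and values below background on 5 arrays for Cfd and Adipoq and on 6 for Plin1, the sizes of their changes are uncertain.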
